A study of Mus musculus with 24 samples.

Results

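Ak1, Ak3 and Ak4 encode adenylate kinases, and their transcripts were followed in the retina of C57Bl/6 mouse pups kept in hyperoxia or in room air. All probe sets that the platform annotation gives to one of these symbols were taken, which gave 9 of the 22690 probe sets on the array, 4 for Ak4, 3 for Ak3 and 2 for Ak1. They stand for 3 of the 12393 genes that have a probe set of their own symbol. The 3 genes were chosen by results of these data, in which the measured differences between hyperoxia and room air were known and Ak4 was lower in hyperoxia. For them these differences are therefore a description with no p-value. Retinal total RNA was hybridised to 24 arrays in 8 groups of 3. The hyperoxia groups were exposed for 12 hours at postnatal day 7, 24 hours at day 8, 72 hours at day 10 and 120 hours at day 12, and the room air groups had the same ages. Age and length of exposure therefore changed together in the hyperoxia groups and cannot be told apart. The labels name no oxygen concentration and no number of pups behind an array. Nor do they say whether replicates came from separate pups, so the p-values reflect the spread between arrays alone, which may be technical.

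Adenylate kinases move a phosphate between adenine nucleotides: a pair of ADP molecules gives ATP and AMP, and the reaction runs both ways. Ak1 is the cytosolic enzyme of muscle, brain and other tissues with a high turnover of ATP. Ak3 sits in the mitochondrial matrix and uses GTP in place of ATP to phosphorylate AMP. Ak4 is also a mitochondrial matrix protein, with weak or no kinase activity in many assays, and its gene is a known target of hypoxia-inducible factor (HIF), the transcription factor that is stable in low oxygen and is degraded when oxygen is high. In the mouse retina, raised oxygen in this period is used to halt vessel growth. Older annotations gave the names Ak3 and Ak3l1 to what is now Ak4, and the current gene table lists Ak3l1 as a synonym of both genes. The probe sets were therefore matched by gene identifier, and all 9 led to the current genes Ak4 (chromosome 4), Ak3 (chromosome 19) and Ak1 (chromosome 2).

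HIF binds a short core sequence, so the promoters of Ak4 and Ak3 are shown for comparison. Each window runs from 250 bases before to 50 bases after a RefSeq transcript start, 5′ to 3′ on the gene's strand, in GRCm38.p6. Capitals mark every ACGTG or GCGTG on either strand, and on the other strand these read CACGT and CACGC.
Ak4, chr4:101419453-101419752, plus strand: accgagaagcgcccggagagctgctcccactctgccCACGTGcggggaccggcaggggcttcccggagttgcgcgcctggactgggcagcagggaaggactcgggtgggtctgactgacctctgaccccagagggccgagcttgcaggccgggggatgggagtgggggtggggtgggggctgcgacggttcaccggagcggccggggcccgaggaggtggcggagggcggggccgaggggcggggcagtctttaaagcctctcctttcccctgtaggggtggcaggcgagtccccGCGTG
Ak3, chr19:29047912-29048211, minus strand: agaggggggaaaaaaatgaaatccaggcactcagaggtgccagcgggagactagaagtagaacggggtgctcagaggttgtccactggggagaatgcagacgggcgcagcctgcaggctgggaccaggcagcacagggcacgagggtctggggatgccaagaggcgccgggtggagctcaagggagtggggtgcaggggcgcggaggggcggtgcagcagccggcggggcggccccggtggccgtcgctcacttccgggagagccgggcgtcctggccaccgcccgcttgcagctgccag
The Ak4 window holds ACGTG on both strands, overlapping in the 6 letters CACGTG, and 1 GCGTG at its end. The other 3 Ak4 windows overlap one another, and each holds the same 2 GCGTG and no ACGTG. The only Ak3 window holds neither. Of the 4 Ak1 windows, 1 holds ACGTG and 2 hold GCGTG. Such matches are common: of 32851 promoter windows of this length, 19.6% hold ACGTG, 32.4% hold GCGTG and 43.8% hold at least 1 of them. They describe the letters in these windows only.

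The deposited array medians lay between 570.2 and 679.7 intensity units, and no pair of arrays held identical values. Values are given below as log2 of quantile-normalized intensity, so a difference of 1 is a doubling. Intensities under 137.4, or 7.10 on the log2 scale, were raised to that floor, and probe sets in the lowest 30% by mean were not tested. Of the 9 adenylate kinase probe sets, 6 were among the 15838 tested: 2 for Ak4, 3 for Ak3 and 1 for Ak1. Because probe sets differ in how brightly they hybridise, levels were compared between groups for each probe set and never between probe sets. Lens genes varied widely within groups, with summed intensities of 13 measured markers of 18 listed between 2100 and 257485 over the groups.

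Ak4 was lower in hyperoxia at days 7, 8 and 10 in both of its tested probe sets, and its level in hyperoxia was closest to that in room air at day 12. For 1421830_at, the day 7 log2 levels were 8.86, 9.07 and 8.72 in hyperoxia, against 9.76, 9.87 and 9.92 in room air. The arrays of the groups did not overlap, and the difference was −0.96 ± 0.15 (SE, n = 3 per group), a level 0.512 times that in room air. At day 8 the levels were 8.90, 9.0 and 8.79 in hyperoxia, against 10.30, 9.89 and 9.62 in room air. The difference was −1.04 ± 0.15, and the room air group spread more widely (SD 0.34) than the hyperoxia group (SD 0.11). At day 10 the hyperoxia arrays stood at 9.41, 9.32 and 9.26, against 10.01, 9.93 and 9.72 in room air. The gap was smaller here, −0.55 ± 0.15, and the groups were still apart. At day 12 the levels were 10.12, 10.32 and 9.80 in hyperoxia, against 10.10, 10.06 and 10.05 in room air. These groups overlapped, with a difference of 0.01 ± 0.15.

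The other tested Ak4 probe set, 1450387_s_at, whose suffix marks probes that can match more than 1 transcript, ran the same way through day 10. Its day 7 levels were 8.85, 8.73 and 8.43 in hyperoxia, against 9.85, 9.55 and 9.61 in room air. The difference was −1.0 ± 0.17, a level 0.500 times that in room air, with no overlap. At day 8 the levels were 8.59, 8.21 and 8.80 in hyperoxia, against 9.91, 9.84 and 9.48 in room air. This was the largest of the Ak4 differences between hyperoxia and room air, −1.21 ± 0.17, or 0.431 times the room air level. At day 10 the levels were 9.32, 9.08 and 9.19 in hyperoxia, against 10.19, 9.94 and 9.96 in room air, a difference of −0.83 ± 0.17. At day 12 this probe set parted from the first: its levels were 9.98, 9.38 and 9.61 in hyperoxia, against 10.26, 10.08 and 10.02 in room air. The groups did not overlap, and the difference was −0.46 ± 0.17. Over days 7, 8 and 10, all 9 hyperoxia arrays lay below all 12 room air arrays in each of these probe sets.

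**Figure D1:**
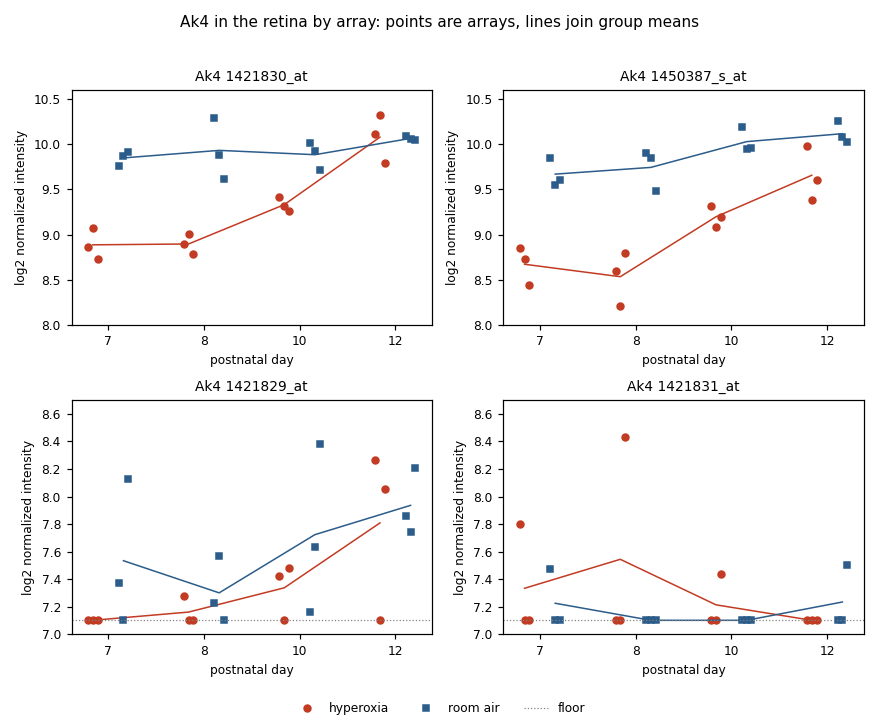
Log2 normalized intensity of the 4 Ak4 probe sets (y axis) against postnatal day (x axis), for hyperoxia and room air. Points are arrays, lines join the means of 3 arrays, and the dotted line is the floor of 7.10. In 1421830_at and 1450387_s_at the hyperoxia arrays of days 7, 8 and 10 lie below every room air array, and many values of the dim probe sets 1421829_at and 1421831_at lie on the floor.

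The dim Ak4 probe sets could not be read in the same way. Probe set 1421829_at had 9 of its 24 values at the floor. At day 7 it was at the floor, 7.10, on all 3 hyperoxia arrays, against 7.37, 7.10 and 8.13 in room air. At day 12 it read 8.27, 7.10 and 8.05 in hyperoxia, against 7.86, 7.74 and 8.21 in room air. The groups overlapped at both ages. Probe set 1421831_at had 19 of 24 values at the floor and reached at most 8.43.

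Over the table, the call was an adjusted p under 0.05 in limma. At day 7, 2 of the 6 adenylate kinase probe sets were called lower, both of Ak4, where 0.0631% of all tested probe sets were. At day 8 the same 2 were called lower, against 0.0821% of all. None was called at day 10, where 0.0568% were called lower, or at day 12, where 0.0126% were. In the mean over the 4 days, both Ak4 probe sets were called lower, against 0.474% of all, with differences of −0.64 ± 0.07 for 1421830_at and −0.88 ± 0.08 for 1450387_s_at. Probe sets whose arrays lay wholly below those in room air numbered 2 of 6 at days 7, 8 and 10 and 1 of 6 at day 12, against 2.91%, 5.49%, 11.9% and 6.69% of all tested probe sets on these days in turn. Since these contrasts were in view when the genes were chosen, nothing is read from the counts. The day 7 calls rested on few arrays: leaving out hyperoxia replicate 3, room air replicate 2 or room air replicate 3 left 0 called, and hyperoxia replicate 2 or room air replicate 1 left 1.

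**Figure D2:**
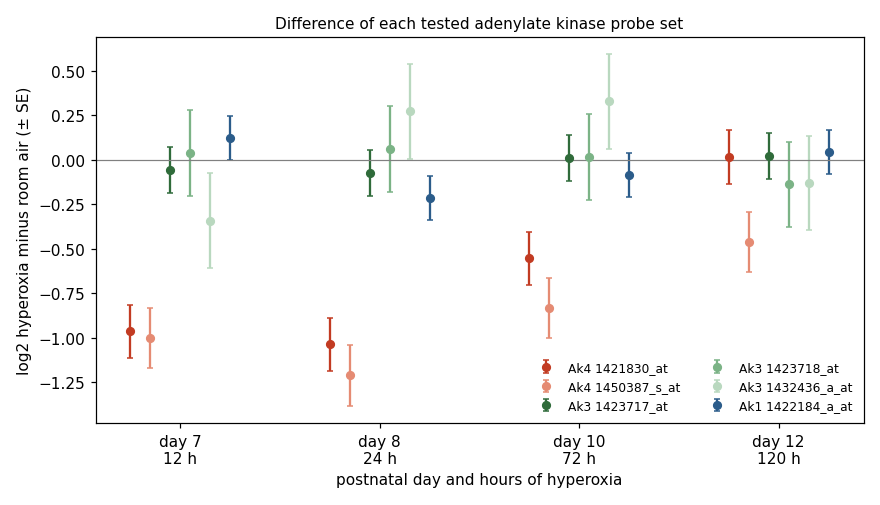
Hyperoxia minus room air in log2 units (y axis) by postnatal day (x axis) for the 6 tested probe sets of Ak4, Ak3 and Ak1, with bars of 1 SE of the fit. The Ak4 differences lie between −0.96 and −1.21 at days 7 and 8 and between −0.46 and 0.01 at day 12, while those of Ak1 lie between −0.22 and 0.12.

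Age was the other axis. In hyperoxia, the Ak4 probe set 1421830_at averaged 10.08 ± 0.27 at day 12 and 8.89 ± 0.17 at day 7 (SD, n = 3 each), a difference of 1.20 ± 0.15, or 2.29-fold. For 1450387_s_at the means were 9.66 ± 0.30 at day 12 and 8.67 ± 0.21 at day 7, a difference of 0.99 ± 0.17. The arrays of both conditions also entered the differences by which Ak4 was chosen, so its values over age are a description too. In room air the change was smaller and not called. Probe set 1421830_at averaged 10.07 ± 0.03 at day 12 and 9.85 ± 0.08 at day 7, a difference of 0.22 ± 0.15. Probe set 1450387_s_at averaged 10.12 ± 0.12 at day 12 and 9.67 ± 0.16 at day 7, a difference of 0.45 ± 0.17. The day 12 arrays lay above the day 7 arrays in both.

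The change of the hyperoxia difference between the ages was 0.98 ± 0.21 for 1421830_at and 0.54 ± 0.24 for 1450387_s_at, day 12 minus day 7. In that comparison limma called 0 of the 15838 probe sets, and 982 had an unadjusted p under 0.05. With a robust prior the counts were 0 and 995. These counts are over the whole table and do not decide whether the Ak4 difference lessened with age. For Ak4 the change is a description with no p-value, since the same contrasts were in view when it was chosen.

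Ordered by mean, the groups of 1421830_at began with hyperoxia at days 7 and 8, which overlapped. Hyperoxia at day 10 stood apart from its neighbours on both sides. The 4 room air groups and day 12 hyperoxia made up the top, and each overlapped the next. For 1450387_s_at the lowest groups were hyperoxia at days 8 and 7, which overlapped, then day 10, then day 12, without overlap between these steps. Day 12 hyperoxia (9.66) and day 7 room air (9.67) could not be separated.

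Ak3 showed no such separation. Probe set 1423717_at read 11.34, 11.10 and 11.32 at day 7 in hyperoxia, against 11.27, 11.14 and 11.52 in room air. At day 8 it read 11.14, 11.21 and 11.11 in hyperoxia, against 10.98, 11.36 and 11.35 in room air. The groups overlapped on each of the 4 days. The mean difference over the days was −0.03 ± 0.06, with a 95% interval of −0.16 to 0.11. The difference between Ak3 and Ak4 was not tested.

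The other Ak3 probe sets were noisier. For 1423718_at the differences between hyperoxia and room air were 0.04, 0.06, 0.02 and −0.14 at days 7, 8, 10 and 12 (SE 0.24), and its 24 values ran between 10.93 and 11.91. Probe set 1432436_a_at, whose suffix marks probes shared by several transcripts of the gene, changed sign between days, with −0.34, 0.27, 0.33 and −0.13 (SE 0.26). Its 3 lowest arrays stood well under the rest of their groups. They were hyperoxia replicate 1 at day 7 (8.81), room air replicate 1 at day 8 (8.86) and room air replicate 1 at day 10 (8.90). Over the 24 arrays the Ak3 probe sets followed one another loosely: Pearson r was 0.61 for 1423718_at with 1432436_a_at, 0.11 for 1423717_at with 1432436_a_at and −0.17 for 1423717_at with 1423718_at. The 2 tested Ak4 probe sets correlated at 0.88 across the same arrays.

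With age, no Ak3 probe set passed the test. In hyperoxia the differences, day 12 minus day 7, were 0.21 for 1423717_at (limma, adjusted p = 0.331), 0.04 for 1423718_at (adjusted p = 0.944) and 0.23 for 1432436_a_at (adjusted p = 0.640). In room air they were 0.14 (adjusted p = 0.560), 0.21 (adjusted p = 0.636) and 0.02 (adjusted p = 0.972) in the same order.

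Ak1 rose with age under both conditions. In hyperoxia its tested probe set 1422184_a_at read 11.84, 11.81 and 11.75 at day 12, against 11.14, 11.27 and 11.01 at day 7. The rise was 0.66 ± 0.12, or 1.58-fold (limma, adjusted p = 0.00122). In room air it read 11.87, 11.62 and 11.78 at day 12, against 10.90, 11.20 and 10.97 at day 7. The rise was 0.73 ± 0.12, or 1.66-fold (adjusted p = 0.000456). The day 12 arrays lay above the day 7 arrays in both conditions. The same held for 3 of the 6 adenylate kinase probe sets in each condition, and for 11.7% of all tested probe sets in hyperoxia and 14% in room air. Such rises were frequent in this period: 5.95% of all tested probe sets were called higher at day 12 in hyperoxia and 7.17% in room air. Of the 6 adenylate kinase probe sets, 3 were called higher in hyperoxia, the 2 of Ak4 and that of Ak1, and only the Ak1 probe set in room air. Because the same arrays entered the choice of Ak4, nothing is read from its part in these counts. In room air the group means of Ak1 were 11.02, 11.37, 11.59 and 11.75 at days 7, 8, 10 and 12. None of the single steps between them was called. Over all tested probe sets, 0% were called higher between days 7 and 8, 0.783% between days 8 and 10 and 0.0189% between days 10 and 12.

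Ak1 did not separate by oxygen. Its differences between hyperoxia and room air were 0.12, −0.22, −0.09 and 0.04 at days 7, 8, 10 and 12 (SE 0.12), with overlapping groups on each day. Their mean was −0.03 ± 0.06 (95% interval −0.16 to 0.09). The dim Ak1 probe set 1423988_at ran between 7.26 and 8.57 over the 24 arrays and was not tested.

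**Figure D3:**
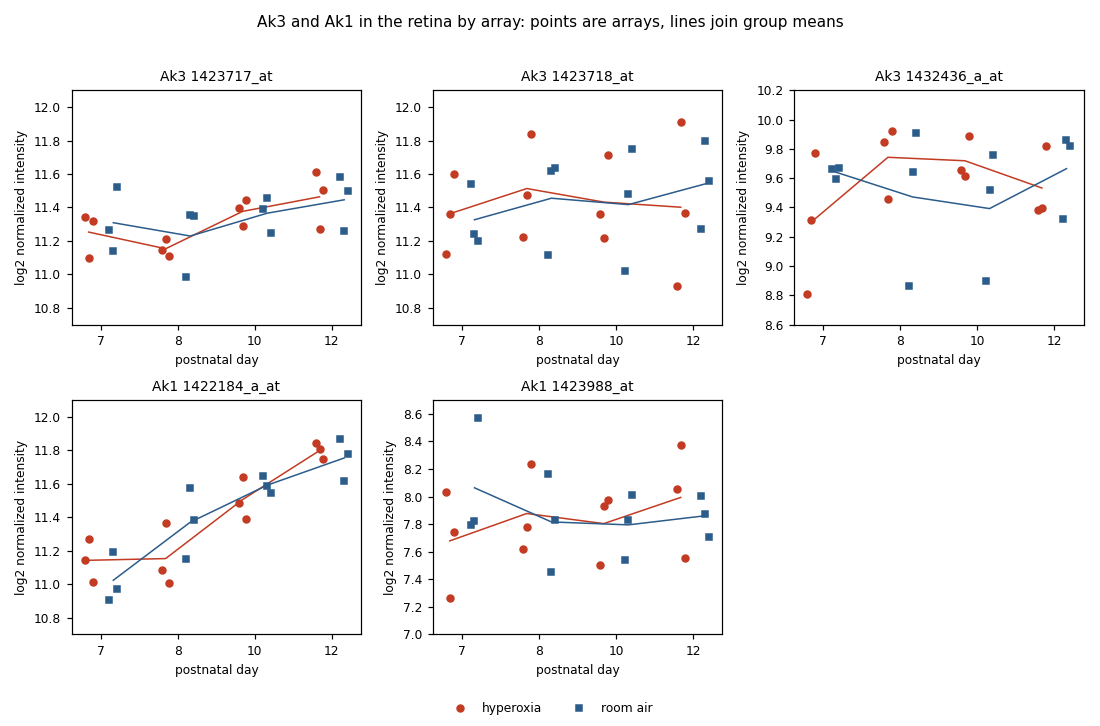
Log2 normalized intensity of the Ak3 and Ak1 probe sets (y axis) against postnatal day (x axis), for hyperoxia and room air. Points are arrays and lines join the means of 3 arrays. Hyperoxia and room air arrays overlap in the tested Ak3 and Ak1 probe sets on every day, and Ak1 1422184_a_at climbs to between 11.62 and 11.87 at day 12.

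Several marker lists moved beside these results, and their part in them was not tested. In bulk tissue, fewer cells of a type and less RNA per cell cannot be told apart. The summed intensity of the rod photoreceptor markers, 9 measured of 10, was 196649 to 203985 at day 12 and 129587 to 146309 at day 7 in hyperoxia. In room air it was 201009 to 211928 at day 12 and 131797 to 150985 at day 7. Rods were not alone in this. The sums were also higher at day 12 without overlap, in both conditions, for the markers of cones (6 measured of 7), of amacrine and ganglion cells (12 of 14) and of Muller glia and astrocytes (10 of 10). Sums overlapped between these ages, in both conditions, for bipolar (6 of 8), endothelial (13 of 14) and microglia and macrophage markers (8 of 10). Of the bipolar markers, Pcp2 was called higher and Otx2 and Vsx1 lower with age in both conditions. In room air the cone sums were 38059 to 43101 at day 12 and 22022 to 25322 at day 7, and the glial sums were 71203 to 77730 at day 12 and 47254 to 52867 at day 7. Of the skeletal muscle markers, where Ak1 is abundant, 5 of 14 were measured above the filter. Their sums were 2618 to 2766 at day 12 and 2298 to 2492 at day 7 in hyperoxia, and 2411 to 2876 at day 12 and 2173 to 2262 at day 7 in room air. With age 3 of these 5 had positive and 2 negative differences in each condition, and Acta1, the actin of skeletal muscle, was called higher in room air. The endothelial markers, 13 of 14 measured, summed to 10555 to 11298 in hyperoxia and 13815 to 17979 in room air at day 10, a day on which Ak4 was also lower. They were apart at day 12 as well, at 10859 to 12862 in hyperoxia and 13634 to 16995 in room air, when Ak4 was closest to its room air level. At days 7 and 8, when the Ak4 differences were larger, their ranges overlapped, at 10606 to 12311 in hyperoxia and 11658 to 15391 in room air on day 8. Of the red blood cell markers, 2 of 10 were measured. Their sums did not overlap at day 7 (489 to 824 in hyperoxia, 1025 to 1263 in room air), at day 10 (424 to 697 in hyperoxia, 799 to 1352 in room air) or at day 12 (275 to 666 in hyperoxia, 1104 to 1190 in room air). They overlapped at day 8 (701 to 836 in hyperoxia, 742 to 1197 in room air). On the lowest day 12 hyperoxia array both markers were at the floor of 7.10. Alas2, an enzyme of heme synthesis in red cells, was called lower in the mean over the days, with a difference of −1.08 ± 0.19 (limma, adjusted p = 0.00689). The other marker, Hbb-b2, was not called (−0.45 ± 0.15, limma, adjusted p = 0.356). Lens markers at day 8 summed to 2935 to 8436 in hyperoxia and 7079 to 151407 in room air, and pigment markers, 9 of 12 measured, to 11750 to 13628 in hyperoxia and 14390 to 19702 in room air. With lens and pigment scores as covariates, the day 8 Ak4 differences were −1.05 for 1421830_at and −1.31 for 1450387_s_at.

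Genes were also ranked by how closely their levels ran with Ak4 over the 24 arrays. For 1421830_at the 5 with the highest Pearson r were Grhpr (0.93), a reductase of glyoxylate, Pfkl (0.93), the liver form of phosphofructokinase, Bnip3 (0.92), a mitochondrial protein of mitophagy, Pgk1 (0.92), phosphoglycerate kinase, and Vegfa (0.90), the vessel growth factor. For 1450387_s_at they were Pfkp (0.94), the platelet phosphofructokinase, Tpi1 (0.93), triosephosphate isomerase, Pgk1 (0.92), Pgam1 (0.91), phosphoglycerate mutase, and Pfkl (0.90). These are 8 genes, 2 of them named for both probe sets, and 7 stand on the list of HIF targets. That list was drawn up with earlier results of these data known, and Ak4 was chosen when it was known to be lower in hyperoxia. The overlap is therefore no independent evidence. The points share their arrays and the same contrast between groups, so the correlations are a description.

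**Figure D4:**
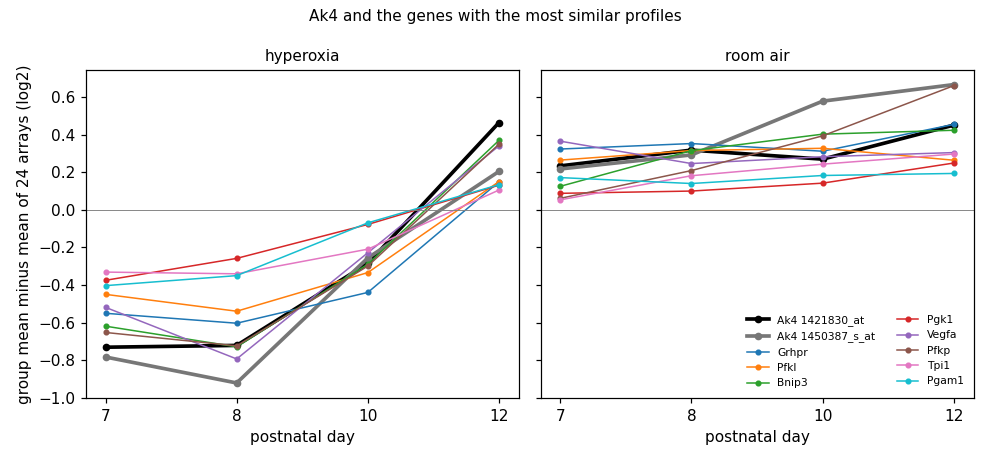
Group means minus the mean of all 24 arrays, in log2 units (y axis), against postnatal day (x axis) for Ak4 and the 8 genes most like it, hyperoxia on the left and room air on the right. In hyperoxia the lines start below 0 at day 7 and end higher at day 12.

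The genes most like Ak1 were Slc4a3 (0.94), an anion exchanger, Ehd4 (0.93), a protein of endocytic membranes, Mpp4 (0.92), a scaffold protein of photoreceptors, Esrrb (0.92), an orphan nuclear receptor, and Drd4 (0.92), a dopamine receptor. For Ak3 the likeness was weaker in 2 of 3 probe sets. The highest was Atp1b2 (0.82), a subunit of the sodium pump, for 1423717_at, and Capn5 (0.77), a calpain protease, and Copg1 (0.77), a coat protein of transport vesicles, for 1423718_at. For 1432436_a_at it was Myo10 (0.91), an unconventional myosin. Next after Atp1b2 for 1423717_at came Tcta (0.80), Gem (0.79), Hilpda (0.76) and Ift81 (0.75).

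Among the other adenylate kinases, 1 of 6 listed genes was tested. Ak5, a cytosolic form of brain, differed by 0.06 ± 0.11 between hyperoxia and room air in the mean over the days. With age its differences, day 12 minus day 7, were 0.48 ± 0.21 in hyperoxia (limma, adjusted p = 0.161) and 0.25 ± 0.21 in room air (adjusted p = 0.504). The genes that handle the products of these kinases were also counted. For the mean difference between hyperoxia and room air, none of these was called. They were 10 other nucleotide kinases, 6 genes of the creatine kinase circuit and 4 genes listed for the AMP-activated kinase. The rest were 12 genes of AMP and adenosine turnover and 8 mitochondrial carriers. The median differences of the lists were −0.01, −0.04, 0.05, 0.03 and 0.02 in that order, beside 0.00 over all tested probe sets. Those listed for the AMP-activated kinase were the subunits Prkag1, Prkag2 and Prkab1, and Stk11, which is not a subunit.

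With age, a few members of these lists passed the test. Guk1, the guanylate kinase that phosphorylates GMP, rose by 0.52 ± 0.13 in hyperoxia (limma, adjusted p = 0.00885) and by 0.65 ± 0.13 in room air (adjusted p = 0.00170). Ckmt1, the mitochondrial creatine kinase, rose by 0.57 ± 0.13 in hyperoxia (adjusted p = 0.00578) and by 0.78 ± 0.13 in room air (adjusted p = 0.000421). Gamt, which makes creatine, fell by 0.55 ± 0.12 in hyperoxia (adjusted p = 0.00289) and by 0.60 ± 0.12 in room air (adjusted p = 0.00150). Slc25a25, a carrier that exchanges ATP-Mg for phosphate across the inner mitochondrial membrane, rose by 0.66 ± 0.18 in hyperoxia (adjusted p = 0.0197) and by 0.78 ± 0.18 in room air (adjusted p = 0.00710). In all, the nucleotide kinases gave 1 higher and 2 lower in hyperoxia, and 2 higher and 0 lower in room air, of 10. The creatine circuit gave 1 higher and 2 lower of 6 in each condition. Beside Gamt, the lower gene was Ckb in hyperoxia (−0.29, limma, adjusted p = 0.0233) and Slc6a8 in room air (−0.44, adjusted p = 0.0364). Of 12 genes of AMP and adenosine turnover, 1 was higher and 0 lower in hyperoxia, and 2 were higher and 1 lower in room air. Counts over age for the mitochondrial carriers are not given here. No gene listed for the AMP-activated kinase was called with age. Over all tested probe sets, 5.95% were called higher and 6.64% lower in hyperoxia, and 7.17% higher and 5.21% lower in room air.

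The HIF targets, without Ak4, give the setting of its differences. Of 31 tested genes of 38 listed, 5 were called lower at day 7, 7 at day 8, 3 at day 10 and 0 at day 12. The shares of all tested probe sets called lower were 0.0631%, 0.0821%, 0.0568% and 0.0126% on these days. Their median differences were −0.34, −0.36, −0.26 and −0.08 at these ages, beside medians of 0.01, 0.00, 0.00 and 0.00 over all tested probe sets. Earlier results of these data were known when the list was drawn up, so it is no independent evidence of direction. Leaving out single arrays gave 1 to 5 called lower at day 7, with 1 left without hyperoxia replicate 3, 3 to 7 at day 8, with 3 left without room air replicate 2, and 0 to 4 at day 10, with 0 left without any one of the 3 hyperoxia arrays of that day. Day 12 minus day 7, 11 of the 31 were higher and 1 lower in hyperoxia (median 0.34), and 5 were higher and 1 lower in room air (median 0.00), beside the shares over all tested probe sets given above for age. In hyperoxia the 4 with the lowest p were Aldoc, an aldolase, which rose by 1.03 ± 0.12, and Bnip3 by 0.99 ± 0.12. They also included Pfkp by 1.00 ± 0.14 and the growth factor Vegfa by 0.86 ± 0.13. The hyperoxia arrays also entered the differences known when the list was drawn up, so these rises are a description with no p-value.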

How the data were processed

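Retinal RNA of mouse pups was measured on 24 arrays. The authors deposited 1 linear intensity per probe set and array, and the software they used is not given in the sources used here. The arrays had a common mean after trimming 2% at each end (1500.35 to 1500.40), while their log2 medians spanned 0.253, so the deposited intensities were quantile normalized here and taken to log2. The 64 control probe sets were left out, values under the 20th percentile were raised to it, and probe sets with a mean under the 30th percentile were removed, which left 15838, with 0.349% of values at the floor. Probe sets were named from the platform annotation (20380 with 1 symbol, 691 with several, 1555 with none).

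Contrasts of the 8 group means were taken from one model of the 24 arrays in limma 3.58.1 under R 4.3.3. It left 16 residual degrees of freedom. The p-values were adjusted by Benjamini-Hochberg over all tested probe sets. The procedure was also run on simulated data with independent noise for each probe set, which the arrays need not have, and nothing is read from it here. The number of arrays limits the precision. In lists, each gene stood by its brightest probe set, and up to 4 of the called members were named. Genes most like a member were the 5 with the highest Pearson r. The members, lists and rules were chosen with earlier results of these data known. A test of Ak4 over age in room air was planned, but its p-values are left out because the same arrays entered the choice of Ak4. All 3 pairs of same-numbered arrays correlated over 0.1 in their deviations at day 12, and at no other day. Promoters were RefSeq windows. Figures were drawn with matplotlib 3.10.9. The alternatives were the scaling, the floor, the filter, the prior, the replicate number as a block, lens and pigment covariates, and left-out arrays.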

Additional observations from a re-analysis of the deposited data

How the results depend on the processing

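Of 2103 values compared over 9 alternative settings and 24 fits that each left out 1 array, 2024 were labelled the same. No called value changed direction. For tests over age the label meant the same side of the threshold. For described differences it meant a move smaller than the SD within groups, whatever the adjusted p. Counts had to be equal or close in ratio. A value that was not called could change sign and keep the label. The Ak4 probe sets called lower at days 7 and 8 fell to 0 and 0 when only the 6 arrays compared were fitted, which leaves few degrees of freedom. Leaving out 1 array gave 0 to 2 called at day 7, 2 at day 8 and 0 to 1 at day 10. At day 10, 1 was called with the replicate number as a block and 1 without the 2 arrays that lay farthest out in their groups (day 12 hyperoxia replicate 2 and day 8 room air replicate 1), and 1 without the first of these alone. The cause was not tested. Day 12 minus day 7 in room air, the replicate block called 2 of the 6 higher, adding Ak4 1450387_s_at at 0.45. Same-numbered arrays correlated between −0.31 and 0.45, over 0.1 in 5 of 12 pairs. At day 12 all 3 pairs did (0.45, 0.23 and 0.39), and each of these hyperoxia arrays correlated best with its own number, so the numbers may pair the samples there. At days 7, 8 and 10 the picture was mixed. Hyperoxia replicate 2 at day 7 (0.29 against at most 0.07) and replicate 3 at day 10 (0.16 against at most 0.06) also correlated best with their own number. The rest did not, and whether the numbers pair samples on these days cannot be told. The block, by number over all days, called 4 probe sets at day 12 in place of 2, and left the Ak4 differences of that day at 0.01 and −0.46, neither called. Over all probe sets and the 9 settings other than left-out arrays, calls for hyperoxia minus room air ran from 0 to 18 at day 7 (10 as reported), 0 to 17 at day 8 (13), 3 to 34 at day 10 (10), 0 to 4 at day 12 (2) and 64 to 99 for the mean (78). Day 12 minus day 7 gave 598 to 2359 in hyperoxia (1994) and 923 to 2287 in room air (1960), and the change of the hyperoxia difference 0 to 1. With single arrays left out the ranges were 1 to 11, 7 to 13, 0 to 22 and 0 to 6 at days 7, 8, 10 and 12, 56 to 86 for the mean, 1400 to 2105 and 1192 to 2112 over age in hyperoxia and room air, and 0 to 2 for the change of the difference. HIF targets called lower ran from 0 to 7 at day 7, 0 to 8 at day 8 and 0 to 4 at day 10.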
